A study of Mus musculus with 2 samples.

Results

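Among the small RNAs of mouse testis, 389 distinct sequences of 28 to 32 nt started with G, were present in both deposited read tables and had at least 1000 reads when the tables were summed. They were taken from 482404 distinct G-start sequences of that length, of which 87938 were in both tables, and from 12016007 distinct sequences in all. Grouped by their first 15 bases they formed 233 groups, of which 162 held 1 sequence and the largest held 19. The summed reads chose the sequences, so abundance is given here as a description. The last sequences inside the minimum had 1000 and 1003 reads, the first outside it had 995 and 992, and no sequence with 1000 reads was left out for being in 1 table alone.

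The labels describe Stambp-ps1+/- and Stambp-ps1-/- males on a C57BL/6 background, with testes taken 23 days after birth and 1 library for each genotype. Stambp-ps1 is by its name a pseudogene of Stambp, and the labels do not say how the allele was made. Since 1 of the samples, Stambp-ps1-/-, carries both tables in the record, a table is called here only by what its deposited name says, KO-named or het-named, and is assigned to neither genotype. A difference between the tables is therefore a difference between 2 libraries, with no replicate and no test. There were 54384974 KO-named and 62773871 het-named reads. Their lengths ran from 18 to 32 nt, although the gel slice reached from 15 to 40 nt. A fragment longer than 32 nt is thus not seen. Reads of 24 to 32 nt that start with T, the form most piRNAs have, made up 62.5% of the KO-named table and 55.1% of the het-named one.

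Transfer RNAs carry amino acids to the ribosome and read the messenger through 3 anticodon bases at the tip of the anticodon loop. Ribonucleases such as angiogenin can cut that loop, which leaves a 5′ fragment with the D arm and a 3′ fragment with the T arm, also called tiRNAs. Such 5′ fragments, those of glycine, glutamate and valine tRNAs among them, are known from mature sperm and the epididymis. The piRNAs that dominate small RNA of the testis at this age mostly start with U, written T in the tables.

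The leading sequences show where these fragments start and stop. Each is the most abundant member of its group and is written 5′ to 3′ as the tables give it. In the first set, capitals mark T at base 8, A at base 14 and the GG of the D loop, letters that the rule for a tRNA 5′ fragment required.

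Gly, leading form: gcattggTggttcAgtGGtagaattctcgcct
Gly, G9A and G15A body: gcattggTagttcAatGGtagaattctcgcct
Gly, T5G body: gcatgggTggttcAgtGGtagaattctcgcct
Val: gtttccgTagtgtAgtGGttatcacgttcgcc
Cys: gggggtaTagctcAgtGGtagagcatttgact
Lys, CTT form: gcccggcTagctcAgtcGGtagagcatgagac
Lys, TTT form: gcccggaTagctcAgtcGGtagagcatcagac
Gln, leading form: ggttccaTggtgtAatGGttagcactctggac
Gln, second form: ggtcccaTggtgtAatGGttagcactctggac
His: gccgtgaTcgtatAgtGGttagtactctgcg
Pro: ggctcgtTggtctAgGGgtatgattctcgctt
Ala, leading form: ggggatgTagctcAgtGGtagagcgcgctt
Ala, second form: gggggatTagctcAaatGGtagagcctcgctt
Leu: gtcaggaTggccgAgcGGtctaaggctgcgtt
Arg: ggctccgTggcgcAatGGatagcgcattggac

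The second set shows forms that differ from these. Capitals mark the changed base, the base added in front, or the pair of bases on both sides of a gap. Where a gap lies in a run of equal bases it could be placed at more than 1 position, and the first is marked.

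Gly, 1 base missing: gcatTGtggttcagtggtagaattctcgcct
Gly, 2 bases missing: gcaTGtggttcagtggtagaattctcgcct
Gly, 3 bases missing: gcaTTggttcagtggtagaattctcgcct
Gly, G6T: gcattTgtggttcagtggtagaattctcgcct
Gly, T8G: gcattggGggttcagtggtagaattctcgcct
Gly, T8A: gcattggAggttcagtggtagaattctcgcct
Gly, T8C: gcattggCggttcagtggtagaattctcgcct
Gly, G9A and G15A body, 1 base missing: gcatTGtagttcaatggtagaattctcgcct
Pro, 2 bases missing: ggcTTtggtctaggggtatgattctcgctt
Pro, 3 bases missing: ggCTtggtctaggggtatgattctcgctt
His, G in front: Ggccgtgatcgtatagtggttagtactc
mt-Ty, G9T: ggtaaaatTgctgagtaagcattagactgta

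A final set holds the start of the mitochondrial tyrosine tRNA, with base 9 in capitals, a sequence with a high table ratio that matched no transcript, and a piece of 28S ribosomal RNA, both with their first base in capitals.

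mt-Ty: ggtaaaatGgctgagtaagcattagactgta
unmatched, high in the KO-named table: Gtcttcccagacggcacacggatagaaact
28S rRNA: Gcagccgacttagaactggtgcggaccagg

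In these lines, as below, G6T means that the leading form has G at position 6, counted from 1 at the 5′ end, and the changed form has T there.

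The tRNA 5′ fragments made up most of the reads. By match to a reference tRNA or by shape, 34 of the 233 groups, with 75 sequences, were tRNA 5′ fragments. They held 67.4% of the members' reads. Of these groups 19 were Gly and 3 Pro. Several were 1 base away from a leading sequence, as G6T is, so they are not 34 separate tRNAs. The shape asked for T at base 8, A at base 14, GG starting at base 16 to 19, and bases 10 to 12 able to pair with 3 bases that start at base 21 to 26. It was present in the leading sequence of 14.6% of groups that start with G, of 0.727% of groups that start with T, and in 0.695% of all distinct sequences of 28 to 32 nt. Another 39 groups, with 62 sequences and 17.6% of the reads, lay within 5 edits of such a fragment or of the mitochondrial mt-Ty and are called changed forms. Every other group was at least 9 edits away, apart from 1 group whose sequence is not shown. Together the 73 groups held 3452515 reads, 84.9% of the members' reads.

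The amino acid of each family was read from the sequence. RefSeq lists 430 mouse tRNA genes on GRCm38.p6, but sequence could be had for 13 of them. The Val fragment matched n-TVcac9 at chr13:23446142-23446214, and the Arg fragment matched n-TRtct2 at chr3:122292948-122293032. The other nuclear families were named by recognition of the sequence and by reads that held the last bases of a fragment and the anticodon after them. Reads in the tables are too short to hold both a whole leading sequence and the anticodon. Such reads therefore began further inside the tRNA or lacked bases, and are not the leading sequences extended. They are tied to a fragment by its last bases alone. For Gly, 94.9% of 5228 such reads went on with GCC and 4.28% with CCC. For Lys, 684 of 687 reads with the last bases of one form went on with CTT. With those of the other form, 118 of 119 went on with TTT, which names both forms. Gln reads went on with CTG in 4593 and TTG in 1009 of 5645 cases, a count that the 2 Gln forms share because their last bases are the same. His reads went on with GTG in 475 of 483 cases, Cys with GCA in 96 of 100, and Leu with CAG in 34 of 34. Pro reads went on with TGG in 91, GGG in 81 and CGG in 56 of 232 cases, and Val with GAC in 307 and CAC in 140 of 451. RefSeq lists no Pro gene with GGG, but 7 with TGG, 6 with AGG and 3 with CGG. It lists no Val gene with GAC, but 11 with CAC, 8 with AAC and 3 with TAC. Reads with the last bases of the second Ala form went on with GGC in 78 of 79 cases. For the leading Ala form there were no such reads. RefSeq lists no Ala gene with GGC, but 13 with AGC, 11 with TGC and 9 with CGC. GGG, GAC and GGC are thus bases as read, not anticodons of listed genes, and their source was not tested. One group of 1033 reads had the shape of a tRNA fragment and was left unnamed.

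Glycine outweighed all other families. Its 43 groups, changed forms included, held 76.7% of the members' reads, with 1546224 KO-named and 1571157 het-named reads. From here on, the first of 2 values is that of the KO-named table. Per 1000000 reads of the table (RPM), this came to 28431 and 25029. Valine held 3.18%, lysine 1.51%, cysteine 1.44%, proline 1.03% and histidine 0.538%. Glutamine held 0.298% and alanine 0.127%, and leucine and arginine were at 0.0292% and 0.0249%. The leading Gly sequence printed above had 818540 KO-named and 759244 het-named reads.

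The table ratio is the RPM in the KO-named table over that in the het-named table, and its 95% interval, from an exact conditional binomial, covers counting error only. Reads amplified by PCR without molecular identifiers are not independent molecules, so these intervals are narrower than the error of a repeated library. All members together had a ratio of 1.056 (1.054 to 1.058). The tRNA 5′ fragments stood at 24745 and 22184 RPM, a ratio of 1.115 (1.113 to 1.118), and with changed forms at 1.112 (1.109 to 1.114). Over sequences made by the same rule that start with A, C or T the summed ratio was 1.091, and over those that start with T it was 1.153. The fragments lay between these. When reads of 24 to 32 nt that start with T were the scale in place of all reads, the log2 ratio of the fragments turned from 0.158 to -0.024, so no direction is given for them. That scale shifts every log2 ratio by -0.182, reads of 24 to 32 nt shift it by -0.084, and reads of 20 to 23 nt by 0.134, and ratios below are on the scale of all reads. In whole testis, fewer cells of a type and less RNA per cell cannot be told apart.

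The families did not share 1 ratio. Gly, with its changed forms, stood at 1.136 (1.133 to 1.138). The summed reads of Val were lower in the KO-named table, at 0.838 (0.829 to 0.847), as were those of Cys at 0.864 (0.850 to 0.879), Lys at 0.934 (0.919 to 0.949) and Pro at 0.952 (0.934 to 0.971). His was at 1.03 (1.003 to 1.058) and Ala at 1.064 (1.007 to 1.124). Gln was at 1.203 (1.161 to 1.247). Leu, with 699 and 486 reads, was at 1.66 (1.477 to 1.868), and Arg, with 590 and 422 reads, at 1.614 (1.422 to 1.833). The Val sum was carried by the exact group, with 41699 and 62089 reads at 0.775 (0.766 to 0.785). The 8 changed forms of Val ran from 0.877 to 1.365, 5 of the 9 Val groups were above 1, and the most abundant changed form, with 6480 and 6214 reads, was at 1.204 (1.162 to 1.246). None of these families reached a 2-fold difference. Every scale shifts all families alike, so their order stays, but Lys and Pro passed to the other side of 1 on the scale of 20 to 23 nt, with log2 ratios of 0.034 and 0.063. His and Ala did so on that of T-start reads, at -0.138 and -0.092, and His also on that of reads of 24 to 32 nt, at -0.041.

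Within glycine the leading body, the G9A and G15A body and the T5G body differed in their ratio. The G6T group, with 153235 and 140614 reads, had more reads than the G9A and G15A body or the T5G body. It is set below as a form of the leading body. The leading group had 903100 and 838485 reads, 16606 and 13357 RPM, and a ratio of 1.243 (1.240 to 1.247). The G9A and G15A body had 77638 and 125150 reads and a ratio of 0.716 (0.710 to 0.723). The T5G body had 78493 and 115048 reads and a ratio of 0.788 (0.780 to 0.795). The ratio of the most abundant body thus lay above 1 and those of both others below 1. All 3 end alike.

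Several abundant forms of glycine lay near their own body. The G6T and G6A forms kept the shape and are among the 34 groups of fragments, while those with 1 base missing are changed forms. The G6T form of the leading body stood at 1.258, the G6A form at 1.270, and the form with 1 base missing at 1.170. The G6T form of the G9A and G15A body stood at 0.670, its G6A form at 0.714 and its form with 1 base missing at 0.735. Of 9 glycine groups with A at base 15, 7 had a ratio under 1, with a range from 0.670 to 1.073. Of 6 groups with the T5G change, 5 were under 1, from 0.595 to 1.106. Of the other 28, 21 were above 1, from 0.420 to 1.414. The printed form with 2 bases missing, whose sequence fits both the leading and the T5G body, was at 0.995 (0.984 to 1.005), and that with 3 bases missing, which also fits both, was at 1.407 (1.379 to 1.436). Further groups with 2 bases missing and G at base 15 were at 1.145 (1.119 to 1.171) and 1.301 (1.165 to 1.453). In other families changed forms could lie apart from the exact fragment. A Lys form of 866 and 692 reads stood at 1.444 against 0.928 for the CTT fragment, and a His form of 739 and 640 reads at 1.333 against 1.061.

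Substitutions at base 8 of the glycine fragment were an exception. T8G had 939 and 2166 reads, a ratio of 0.5004 (0.463 to 0.541), T8A had 485 and 1293 reads, at 0.433 (0.389 to 0.481), and T8C had 437 and 1201 reads, at 0.420 (0.376 to 0.469). All 3 possible changes of this T were thus lower in the KO-named table, although the unchanged sequence was higher there. Reads changed at base 8 came to 0.227% and 0.614% of the exact leading sequence, so the share was 2.70 times as high among het-named reads. For the G9A and G15A body the shares were 0.296% and 0.438%, and for the T5G body 0.988% and 1.70%, with ratios of 1.48 and 1.72. Over 127 other sequences with at least 30000 reads that do not start with G, the share at base 8 had medians of 0.112% and 0.100%, and the ratio of the shares ran from 0.373 to 2.92 with a median of 0.944. The glycine value lay inside that range, near its upper end.

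At base 6 the share of changed reads was high and nearly the same in both tables. Reads changed at base 6 were 18.01% and 17.8% of the exact leading glycine sequence, against medians of 0.0772% and 0.0710% in the other sequences. Over the 16 fragments examined, mt-Ty included, a change at base 6 passed 1% in both tables in 10. These 10 are not separate, as they hold the leading, the G9A and G15A and the T5G body of Gly and both Lys forms. The next most often changed place was base 9, in 7 of 16. Among the 127 other sequences base 6 passed 1% in 11 and base 9 in 5. Base 9 of mt-Ty was changed in 55.97% and 59.6% as many reads as were exact, and that of Pro in 65.3% and 64.1%. The Pro G6T and G9C forms, at 2467 and 1912 reads, reached the minimum as groups of their own. A base of another tRNA gene, which T4C between the 2 Gln forms could be, and a base changed in the reads cannot be told apart here.

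Reads with missing bases near the 5′ end were also common in some families. Reads were taken that ended in exactly the bases from position 13 on of a leading sequence, and the bases before were compared. For the leading Gly fragment, 61.1% of 1339533 KO-named reads and 57.9% of 1310756 het-named reads were exact, and 17.5% and 18.1% lacked bases inside. One missing base made up 12.4% in each table, and 2 missing bases 3.70% and 4.40%. In the Pro fragment the exact sequence was the minority, at 9.51% and 9.39%, while 66.6% and 67.2% of reads lacked bases. The Pro sequences with 2 and 3 bases missing, printed above, had 14787 and 10590 reads against 3688 for the exact one. As first placed, the gap began at base 4, 5 or 6 in each of the Gly and Pro forms printed.

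Set as deleted reads over deleted plus exact reads, Pro was at 87.5% (86.9 to 88.1, Clopper-Pearson 95%) and 87.8% (87.2 to 88.2). Arg was at 47.04% (44.1 to 50.02) and 53.98% (50.7 to 57.2), and Gly at 22.3% and 23.8%. At the other end, Lys, Cys, His, Leu and the Ala forms were under 1% in both tables. Only the first 12 bases were compared, and only with the leading sequence. A base missing further in, or missing from the leading sequence itself, was therefore not seen. Among 16 fragments 8 were above 1% in both. These 8 are not separate. The leading and T5G Gly bodies were compared over the same 1339533 and 1310756 reads, and the Gln forms over the same 5385 and 5103. A fragment needed 1000 reads, but each sequence set beside them below needed 5000. Of 15 G-start sequences that are neither tRNA nor rRNA, none was, with a highest value of 0.327%. Of 439 T-start sequences of 30 to 32 nt without the tRNA shape 24 were, with medians of 0.149% and 0.115%, and of 7 T-start sequences with that shape 4 were. Of 18 rRNA sequences 10 were above 1%, but there the exact sequence was a small share of reads that mostly started later.

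Most fragments had a main length, and most had a main start. Over all reads of 18 to 32 nt that share the first 15 bases of a fragment, 90.40% (90.35 to 90.44) of KO-named and 90.65% (90.60 to 90.70) of het-named reads had 32 nt, the longest length in the tables. Reads of 32 nt were 7.48% and 7.18% of all reads. Since the tables stop there, the true end of reads with 32 nt may lie beyond, and was not seen. Forms with missing bases leave room below that limit. The Gly form with 1 base missing had 90.3% and 90.03% of its reads at 31 nt, and 0.757% and 1.05% at 32 nt. The printed Pro form with 2 bases missing had 68.7% and 76.2% at 30 nt, and 0.148% and 0.120% at 32 nt. Few reads of these forms thus ran on to the limit. The leading Gly group had 92.04% and 91.97% of its reads at 32 nt, 5.57% and 5.52% at 31 nt, and 0.0812% and 0.0802% under 28 nt. Cys had 79.2% and 80.6% at 32 nt and 19.8% and 18.5% at 31 nt. Changed forms with missing bases were shorter by the bases they lacked. All 39 groups of changed forms together had 92.02% of KO-named reads at 28 to 31 nt. These 39 also include forms with a substitution, such as T8G, that had 32 nt, and the His forms.

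Leu, Ala, His and the leading Gln group had reads of more varied or shorter length. The leading Gln group had 49.9% and 48.6% of its reads at 32 nt, 43.4% and 44.5% at 28 to 31 nt and 6.69% and 6.93% at 21 to 27 nt. The second Gln form had 84.5% and 83.4% at 32 nt. Reads that share the start of the Leu fragment had 26 nt most often, and 85.8% (85.1 to 86.5) and 83.6% (82.7 to 84.4) had 21 to 27 nt. The one Leu member of 32 nt was therefore the longer end of a group of 10117 and 7551 reads, which as a whole had a ratio of 1.546 (1.501 to 1.593). Leu reads of 18 to 20 nt went the other way, with 98 and 306 reads and a ratio of 0.370 (0.291 to 0.466), beside 0.522 over all reads of that length in the tables. Ala reads of the leading form were spread over 30 nt (24.1% and 25.6%), 31 nt (32.9% and 29.8%) and 32 nt (22.9% and 24.3%). His reads had 31 nt most often, with 21.2% and 27.2% there.

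In Val, as in some Gly and Pro groups, the short and the long reads differed in their table ratio. Val reads of 28 to 32 nt with the leading start stood at 0.782 (0.773 to 0.791), whereas those of 21 to 27 nt, with 794 and 703 reads, stood at 1.304 (1.176 to 1.445). For the leading Gly group the ratios at these lengths were 1.245 (1.242 to 1.249) and 1.326 (1.086 to 1.621). Counting intervals did not overlap for Val and did for the leading Gly group. For the Gly T5G body they did not overlap, at 0.791 (0.784 to 0.798) and 1.253 (0.894 to 1.759). The Gly form with 3 bases missing stood at 1.395 (1.367 to 1.423) and 1.825 (1.534 to 2.175), also without overlap. So did the printed forms with 2 bases missing, Gly at 0.997 (0.986 to 1.008) and 1.491 (1.159 to 1.924), and Pro at 0.971 (0.945 to 0.997) and 1.379 (1.246 to 1.527). Intervals overlapped for Cys, at 0.864 (0.850 to 0.878) and 0.8465 (0.607 to 1.176), and for Lys CTT, at 0.9385 (0.922 to 0.955) and 0.663 (0.412 to 1.049). Some 28S rRNA groups were also without overlap, in either direction, and in others intervals overlapped. The 28S group printed above stood at 0.458 (0.445 to 0.471) and 0.530 (0.508 to 0.553). Another stood at 0.527 (0.503 to 0.552) and 0.363 (0.349 to 0.378). Such a difference was thus not particular to tRNA fragments, and the groups without overlap were not counted.

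Nearly all reads of most fragments began at 1 base. Counting starts up to 3 bases to either side, 99.9% of reads of the leading Gly group began at its first base in each table, and the median over 16 fragments was 97.6% and 98.01%. For 6 abundant rRNA groups the same share ran from 10.4% to 23.6% among KO-named and from 10.99% to 21.4% among het-named reads. The Lys forms were between, at 76.5% and 82.9% for CTT and 74.8% and 83.1% for TTT. His stood apart, at 16.9% and 17.2%. The histidine tRNA is known for an extra G that an enzyme of the Thg1 family adds in front of its first base. Of 42026 reads that began 1 base before the His fragment, 51.1% had G there, 38.4% had T, 10.3% had A and 0.136% had C. Members start with G by the rule, so the His group with G in front was counted here, with 6754 and 7844 reads and a ratio of 0.994 (0.962 to 1.027), and the forms with T and A were not. The group without the extra base had 2830 and 3080 reads and a ratio of 1.061 (1.007 to 1.116).

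The mitochondrial tyrosine tRNA was the only mitochondrial transcript among the members. Its gene, mt-Ty, lies on the minus strand of the mitochondrial chromosome from position 5260 to 5326 on GRCm38. It had 2857 and 1948 reads, 52.5 and 31.03 RPM, and a ratio of 1.693 (1.598 to 1.794). Its G9T form had 957 and 697 reads and a ratio of 1.585 (1.436 to 1.750). Its leading sequence did not meet the shape asked of the nuclear fragments.

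Ribosomal RNA set the other main pattern. With the tables at 1 library each, a group is called here when its log2 ratio is at or past 1 in size, a 2-fold difference. Of 233 groups 53 (22.7%) were called lower in the KO-named table and 3 (1.29%) higher. Among the groups made by the same rule that start with T the shares were 1.32% and 0.493%, with A 27.4% and 0%, with C 32.7% and 0%, and over A, C and T together 4.28% and 0.442%. Of the 53 low groups, 50 belonged to 79 groups recognised as 28S or 5.8S rRNA, parts of the large ribosomal subunit. Of the other 3, 2 were the T8A and T8C forms of Gly.

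The 79 rRNA groups held 7.27% of the members' reads, with 85424 and 210047 reads, 1571 and 3346 RPM, and a ratio of 0.469 (0.466 to 0.473). The ratio was under 1 in 78 of 79, with a median of 0.458 beside 0.944 over all 233 groups. The groups overlap by at least 15 bases into 29 stretches, so they are not 79 separate fragments. The group with most reads, printed above, had 6426 and 16277 reads and a ratio of 0.456 (0.443 to 0.469). The lowest, 1 sequence of 28 nt with 217 and 1038 reads, was at 0.241 (0.207 to 0.280), and the 9 next lowest ran from 0.310 to 0.370 and included 1 piece of 5.8S rRNA. The exception was a 28S group of 2231 and 2197 reads, at 1.172 (1.105 to 1.244). Over all reads of 18 to 32 nt with its start, that group was at 0.968 (0.918 to 1.020). Its reads of 21 to 27 nt, 107 and 301, were at 0.410 (0.326 to 0.513). Reads of 18 to 20 nt that share the starts of the 79 groups were at 0.331 (0.327 to 0.334), and those of 28 to 32 nt at 0.473 (0.470 to 0.476). Reads of 18 to 20 nt were 4.08% of all KO-named and 7.83% of all het-named reads. Whether the rRNA share and the tables' short reads have 1 source was not tested. Pieces of 5S rRNA were 1 group, at 0.872 (0.800 to 0.951).

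Of 6 groups from small nucleolar RNAs and a small Cajal body RNA, guides of RNA modification, all 6 were above 1. So were 107 of all 233 groups. Without the tRNA 5′ fragments, their changed forms and rRNA, 67 of 80 groups were above 1, so these 6 do not stand apart. Snord57, on the plus strand at chr2:130278016-130278087 (GRCm38, as are the places below), had 7030 and 6582 reads and a ratio of 1.233 (1.192 to 1.275). Snord118, the U8 RNA needed for 28S and 5.8S processing, at chr11:69073427-69073561 on the plus strand, had 4376 and 3201 reads and a ratio of 1.578 (1.507 to 1.652). Snord85 was at 1.352 and Snord45c at 1.542, and none of the 6 reached a 2-fold difference. The leading sequence had 28 nt in 3 of them and up to 31 nt in the others.

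Few members matched known piRNA sources or other genes. Of 6 groups that matched piRNA precursors, 3 matched Gm49794 at chr17:27354111-27367492, 2 matched Gm5878 at chr6:85111416-85126125, and 1 matched 1700001L05Rik at chr15:83353847-83367282. Of the 6, 5 were above 1, beside the 67 of 80 groups given above, and 1700001L05Rik was at 0.870 (0.805 to 0.939). One of the Gm49794 sequences, with 1021 and 897 reads and a ratio of 1.314 (1.200 to 1.439), matched 71 genes in all, so its source cannot be told. A Gm49794 sequence that also matched 3 other genes had 966 and 545 reads and a ratio of 2.046 (1.840 to 2.277). A sequence inside the Mir468 hairpin, at chr6:81896599-81896676 on the minus strand, had a ratio of 1.489 (1.405 to 1.577), and one inside Mir7217, itself within Gm49794, a ratio of 0.834 (0.781 to 0.890). A sequence in 4933440M02Rik had a ratio of 1.463 (1.348 to 1.587). Another, on the strand opposite Stox1, had a ratio of 1.189, and one opposite CT025671.4 had 500 and 577 reads.

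A set of 60 groups, with 91 sequences and 6.24% of the reads, matched no transcript. Their ratio was 1.231 (1.221 to 1.241), and 51 of 60 were above 1, with a median of 1.152. Groups made by the same rule that start with T had a summed ratio of 1.153 and a median of 1.172. Of the reads of the 60 groups 33.4% and 31.1% had 30 nt, and 7.87% and 8.58% had 32 nt. Among the 6012 distinct T-start sequences made by the same rule, 2034 had 30 nt and 427 had 32 nt. These count distinct sequences of 28 to 32 nt, not reads, so they are no measure of the same kind as those shares. A stood at base 10 in 30 of 60, beside 1231 of 3851 groups that start with T, 88 of 230 with A and 67 of 214 with C. It stood there in 24 of 79 rRNA groups and in 0 of 34 tRNA 5′ fragments, of which 19 are Gly. A at base 10 is a mark that piRNAs made by ping-pong amplification are known to carry. Whether the 60 groups are such piRNAs was not tested. The group with most reads had 14905 and 14728 reads and a ratio of 1.168 (1.142 to 1.195). The next, printed above, had 15344 and 6187 reads, 282 and 98.6 RPM, and the highest ratio of all 233 groups, 2.863 (2.779 to 2.949). It held 5 sequences of 28 to 31 nt. A sequence of 1165 and 480 reads followed at 2.801 (2.517 to 3.122), and with the Gm49794 sequence these are the 3 groups called higher.

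One further group, whose sequence matched nothing used here and is not shown, had 2 KO-named against 1539 het-named reads and is the remaining low group. A last group, repeated in 13 genes, was at 0.587 (0.520 to 0.662).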

How the data were processed

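The deposited tables give raw read counts for each distinct sequence, made by the authors. Their upstream steps (trimming, length filter, alignment): not given in the sources used here. Both tables are listed under the Stambp-ps1-/- sample, so the tables were put in no genotype group and no test between groups was run. Members, lists and rules were chosen with earlier results of these data known.

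Sequences of 28 to 32 nt that start with G, are in both tables and have at least 1000 summed reads were grouped by their first 15 bases. Leading sequences were matched with 0 mismatches, on both strands, to GENCODE M21 transcripts (GRCm38), and to RefSeq tRNA genes where a promoter window or exon held their sequence. 28S and 5.8S rRNA and most tRNA families were named by recognition, without a reference. Changed forms lie within 5 edits (edlib 1.3.9.post1) of a tRNA 5′ fragment. RPM is per 1000000 reads of the table. Ratios carry exact conditional binomial and shares Clopper-Pearson 95% intervals, log2 ratios have 0.5 reads added for groups, and all cover counting error only. Groups named singly are the 10 with most reads, those at the ends of the log2 ratio past 1 in size, the leading group of each tRNA family and up to 4 of each other class, and the changed forms beside them were chosen after their values were seen. Alternatives varied the scale, minimum, lengths and group key. The steps were tested on simulated data. Python 3.11.15, pandas 2.3.3, numpy 2.4.6 and scipy 1.17.1 were used.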

Additional observations from a re-analysis of the deposited data

How the results depend on the processing

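No paired analysis was possible because each table is 1 library and no test was run. The count of 389 sequences was 820 and 185 with minimums of 500 and 2000 reads and 638 at lengths of 24 to 32 nt. The members' summed log2 ratio of 0.079 was -0.005 scaled to reads of 24 to 32 nt, -0.103 scaled to those that start with T and 0.213 scaled to 20 to 23 nt. It was 0.049 and 0.111 with minimums of 500 and 2000 reads, -0.027 and 0.098 at lengths of 24 to 32 and 30 to 32 nt, and -0.098 without the leading glycine group. The groups' median of -0.084 was -0.265 scaled to T-start reads, 0.050 scaled to 20 to 23 nt, and -0.432 at 24 to 32 nt. The 56 groups at or past 1 in size were 105 and 23 with minimums of 500 and 2000 reads and 98 at 24 to 32 nt.

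For the tRNA 5′ fragments the log2 ratio of 0.158 was 0.074, -0.024 and 0.291 under the 3 scales in that order, and -0.117 without the leading glycine group, so the direction of the sum rests on that group. Counted as distinct sequences, 6524 and 5993, it was 0.329. Alternatives chosen after seeing the data gave 0.153 with changed forms and -0.202 without glycine. Without rRNA the members' sum was 0.165, the groups' median 0.189 and the count past 1 in size 6. The share of reads at 32 nt, 90.4% in the KO-named table, was 72.8% with changed forms and 87.3% without the leading group. The rRNA groups were between -1.273 and -0.958 under all 4 scales. The cause of these shifts was not tested, other than by which groups or reads each alternative leaves out. A ceiling of 32 nt limits what the lengths can show, and sequences with few reads, such as the Arg fragment, have the widest intervals.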
